A study of Mus musculus with 31 samples.

Results

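The 10 genes followed here belong to the calcium-binding S100 and annexin families, the galectins and the cytoskeleton, and were measured in mouse models of peripheral T cell lymphoma. They are S100a4, S100a6, S100a10, S100a11, Lgals1, Lgals3, Anxa1, Anxa2, Crip1 and Vim. They were taken as a named list, and each was found by its symbol in all 31 count tables, out of 48211 symbols that both kinds of table hold. The study compared normal, pre-lymphoma and tumor samples from mice labelled as strain C57B/6. The models carry a conditional fusion of Vav1, a guanine nucleotide exchange factor below the T cell receptor, to Myo1f, a class I myosin. Cre recombinase driven by Cd4, or CreERT2, a form of Cre that acts when tamoxifen is given, is named in every genotype label, controls included. Tamoxifen, the ages of the mice and the number of mice behind each library are not given in the labels.

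The pre-lymphoma set consists of CD4+ T cells without whole spleen. Its 2 control libraries have the genotype CD4-Cre-ERT2(WT) and the status normal. The label of 3 pre-lymphoma libraries joins CD4-Cre-ERT2(WT) and Vav1Myo1ffl/wt;CD4CreERT2 (Vav1Myo1f) by a slash, and that of 3 others names Vav1Myo1ffl/wt;CD4CreERT2 (Vav1Myo1f) on both sides of the slash. The meaning of the slash is not stated, so the first group is named control/fusion here and the second fusion/fusion. The CD4-Cre set compared CD4-Cre(WT) controls with tumor mice of genotype CD4-CreVav1Myo1f fl/wt, in CD4+ cells (3 control and 4 tumor libraries) and whole spleen (3 and 3). The CD4-CreERT2 set compared CD4-CreERT2 (WT) controls with CD4-CreERT2Vav1Myo1f fl/wt tumor mice, in CD4+ cells (2 and 2) and whole spleen (3 and 3). Cre under control of Cd4 also acts in T cells that pass through the thymus before they become CD8+ cells, so the fusion need not be limited to CD4+ cells in that model.

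S100 proteins are small calcium-binding proteins with EF-hand motifs, which change shape when calcium rises and then bind partner proteins. Annexins bind membrane phospholipids in the presence of calcium, and S100A10 and annexin A2 form a complex at the membrane. Galectins bind sugars on glycoproteins of the cell surface. Many of these transcripts, though not all, are lower in naive T cells and rise when T cells are activated and become effector or memory cells. Monocytes, macrophages and neutrophils also express many of them.

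The 4 S100 genes lie on mouse chromosome 3 in a pair of neighbourhoods, with coordinates as in the deposited CD4-CreERT2 tables, whose build is GRCm38. S100a4 spans chr3:90603771-90606045 and S100a6 spans chr3:90612882-90624181, both on the plus strand, with S100a5 between them. S100a11 (chr3:93520488-93526287) and S100a10 (chr3:93555080-93564643) are neighbours as well. The other members are on chromosomes 15 (Lgals1), 14 (Lgals3), 19 (Anxa1), 9 (Anxa2), 12 (Crip1) and 2 (Vim), and all 10 are protein-coding genes.

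Because the members moved together in the pre-lymphoma set, the sequence before their starts is shown. RefSeq entries of build GRCm38.p6 were found for 8 of the 10 genes, all but S100a10 and Lgals1. Each entry was read over the 250 bases before the start. Printed are the bases of that window that lie before the first annotated base of the gene in the GENCODE M21 annotation, which leaves 4 genes, all on the plus strand. Capitals mark matches on either strand. The first motif is TGANTCA, bound by AP-1 factors. Another is the CACC box CCACCC, bound by factors of the KLF and SP families. The last is the TATA box TATAAA.
S100a4, chr3:90603520-90603769: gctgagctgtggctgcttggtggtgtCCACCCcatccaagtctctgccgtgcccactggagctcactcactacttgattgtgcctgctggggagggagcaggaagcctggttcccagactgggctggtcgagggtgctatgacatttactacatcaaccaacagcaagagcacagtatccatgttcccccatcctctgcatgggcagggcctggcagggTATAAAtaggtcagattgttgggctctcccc
S100a6, chr3:90612644-90612881: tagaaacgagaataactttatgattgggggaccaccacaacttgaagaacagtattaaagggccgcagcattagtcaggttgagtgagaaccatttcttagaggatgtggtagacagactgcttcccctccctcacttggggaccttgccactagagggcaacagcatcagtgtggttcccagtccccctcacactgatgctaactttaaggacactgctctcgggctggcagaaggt
S100a11, chr3:93520246-93520487: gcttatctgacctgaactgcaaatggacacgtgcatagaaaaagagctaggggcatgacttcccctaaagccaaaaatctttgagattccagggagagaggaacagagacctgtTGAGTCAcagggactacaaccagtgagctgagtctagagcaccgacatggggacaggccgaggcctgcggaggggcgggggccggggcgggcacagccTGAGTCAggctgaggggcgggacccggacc
Anxa2, chr9:69453433-69453619: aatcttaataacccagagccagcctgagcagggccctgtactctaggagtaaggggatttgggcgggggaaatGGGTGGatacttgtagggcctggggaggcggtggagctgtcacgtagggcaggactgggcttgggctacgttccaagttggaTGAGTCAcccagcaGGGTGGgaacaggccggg

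In the full 250-base windows, TGANTCA was found before 2 of the 8 genes, S100a11 (2 matches) and Anxa2 (1 match), and 6.7% of all RefSeq windows of this length hold it. CCACCC was found before 4 genes, S100a4, Anxa2, Crip1 and Vim, against 28.1% of all windows. TATAAA was found before 4 genes, S100a4, Anxa1, Anxa2 and Vim, against 12.4% of all windows. The windows of S100a6, the member with the largest change in fusion/fusion, and of Lgals3 hold none of these letters. No match overlapped another. These matches are letters only, and binding was not measured.

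Levels are given as CPM, read counts scaled to the size of the library and by TMM (trimmed mean of M values) within each set, and the libraries hold between 12632196 and 37568512 gene counts. Levels of different genes are compared only per kilobase of summed exon length. The T cell markers summed to 4579 to 8061 CPM in CD4+ libraries and to 929.9 to 2695 CPM in spleens. The CD4+ libraries still held macrophage and monocyte markers, from 546 CPM in a CD4-Cre tumor library to 8315 CPM in a CD4-Cre control library, and B cell markers from 70.5 to 3039 CPM. The CD4+ library of tumor mouse VM98 stood apart, with 34546 genes detected against 21523 to 24649 in the other CD4+ libraries. The spleen library of tumor mouse VM294 had 18368, against 22131 to 24162 in the other spleens. A tumor library and 2 control libraries share the mouse number VM645. In bulk samples, fewer cells of a type and less RNA per cell cannot be told apart.

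S100a4 has to be read with care. Of the 584 bases of its exons, 302 (51.7%) are also exon bases of Gm42674, another protein-coding gene model on the same strand in GENCODE M21. A read in both genes can be set aside as ambiguous when counted, and whether that happened was not tested. S100a4 ran from 2.47 to 15.1 CPM in the pre-lymphoma set, between 0.432 and 4.46 CPM in CD4-Cre libraries and between 6.11 and 76.3 CPM in CD4-CreERT2 libraries, so its level is compared only within a set.

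In pre-lymphoma CD4+ cells the genes rose with the fusion label. All 10 were higher in fusion/fusion than in control, at an adjusted p under 0.05 in the edgeR quasi-likelihood test, and none was lower, where 23.8% of all 16257 genes tested were higher and 22.0% lower. For control/fusion the counts were 8 higher and 0 lower, against 11.6% and 8.70% of all genes. Between fusion/fusion and control/fusion 9 were higher and none lower, against 9.59% and 9.30%. These comparisons share libraries, so they are not independent of each other. The median log2 fold change of the members was 0.82 in control/fusion and 1.56 in fusion/fusion against control, beside medians of 0.00 and -0.01 over all genes tested.

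**Figure D1:**
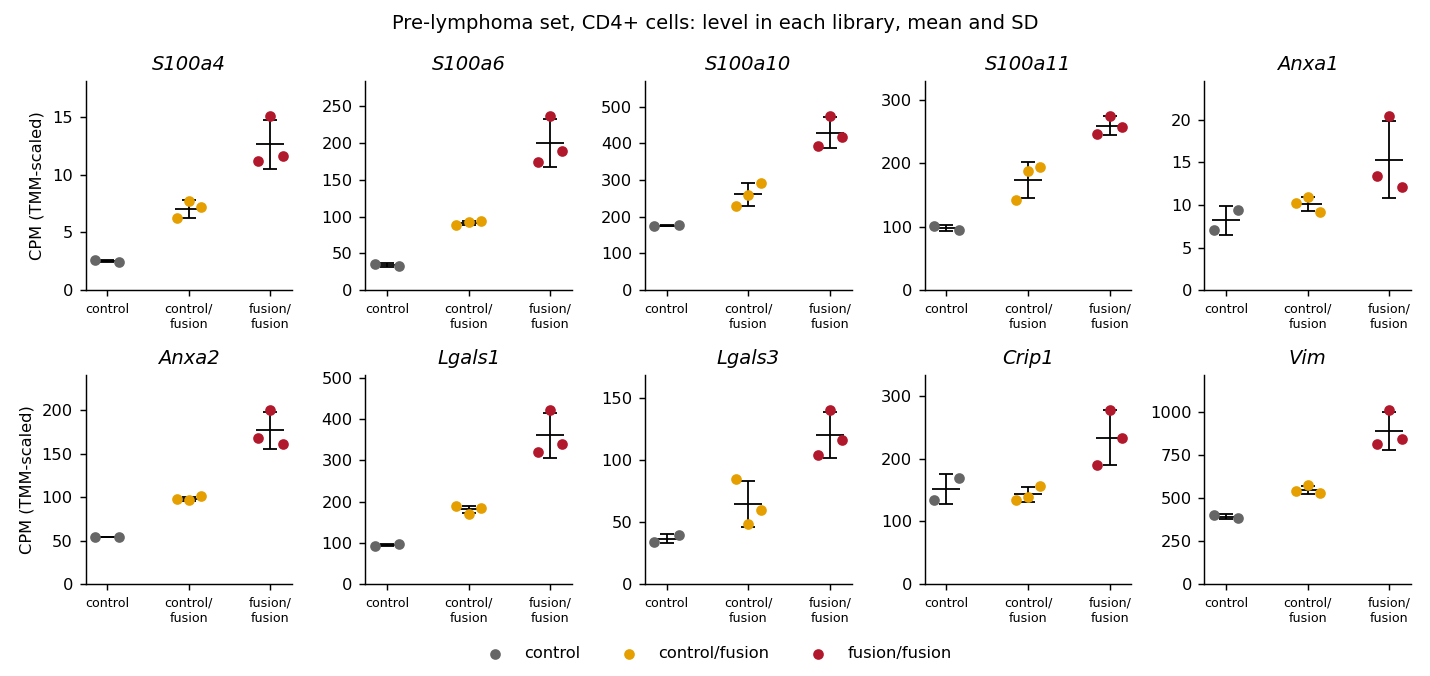
TMM-scaled CPM (vertical axis, from 0) of each member in the 8 pre-lymphoma CD4+ libraries, in 1 panel per gene, with 1 point per library and bars for the mean and SD of the 2 control, 3 control/fusion and 3 fusion/fusion libraries (horizontal axis). Every fusion/fusion point lies above every other point of its panel, and the control/fusion points lie above the controls except for Anxa1 and Crip1.

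S100a6, an S100 protein of proliferating and activated cells, had the largest change in fusion/fusion. Its level was 36.0 and 32.4 CPM in the controls, 88.5, 92.1 and 94.3 CPM in control/fusion and 175, 237 and 189 CPM in fusion/fusion. The 3 groups did not overlap. The log2 fold change against control was 1.42 ± 0.12 (SE, adjusted p = 0.00018) in control/fusion and 2.55 ± 0.13 (adjusted p = 1.1e-06) in fusion/fusion, a 5.85-fold higher level.

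S100a4, a marker of effector and memory T cells that also binds non-muscle myosin, followed the same order at a low level. The controls had 2.61 and 2.47 CPM, control/fusion 6.22, 7.73 and 7.17 CPM, and fusion/fusion 11.2, 15.1 and 11.6 CPM, from 63 to 313 counts in a library. Here too the groups were separate. The log2 fold change was 1.47 ± 0.19 (adjusted p = 0.0010) in control/fusion and 2.31 ± 0.19 (adjusted p = 1.5e-05) in fusion/fusion.

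S100a10, the partner of annexin A2, was at 175 and 176 CPM in controls, 229, 259.9 and 293 CPM in control/fusion and 393, 475 and 418 CPM in fusion/fusion. S100a11, an S100 protein that binds annexin A1, was at 101 and 94.8 CPM, then 142, 187 and 194 CPM, then 246, 275 and 257 CPM. Both formed 3 separate groups. Their log2 fold changes in fusion/fusion against control were 1.29 ± 0.11 (adjusted p = 1.8e-05) and 1.40 ± 0.12 (adjusted p = 2.0e-05). In control/fusion they were 0.57 ± 0.11 (adjusted p = 0.0060) and 0.83 ± 0.12 (adjusted p = 0.0018).

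The annexins are lipid-binding partners of S100 proteins. Anxa2, the membrane partner of S100a10, was at 53.7 and 54.0 CPM in controls, 97.7, 96.3 and 101 CPM in control/fusion and 168, 201 and 162 CPM in fusion/fusion. Its log2 fold change was 0.87 ± 0.09 (adjusted p = 0.00045) and 1.72 ± 0.09 (adjusted p = 1.6e-06) against control. Anxa1, whose protein acts on formyl peptide receptors and limits inflammation, was low throughout, at 7.01 and 9.36 CPM in controls, 10.3, 10.9 and 9.20 CPM in control/fusion and 13.4, 20.5 and 12.1 CPM in fusion/fusion. The control and control/fusion groups of Anxa1 overlapped, and its log2 fold change there was 0.30 ± 0.22 (adjusted p = 0.37). In fusion/fusion it was 0.90 ± 0.22 (adjusted p = 0.0080), and without the control library TA018 it was 0.69 (adjusted p = 0.074). The step of Anxa1 from control/fusion to fusion/fusion was 0.60 ± 0.20 (adjusted p = 0.059), which passed with DESeq2 (adjusted p = 0.022).

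Among the galectins, Lgals1, whose protein can induce death of activated T cells, was at 93.3 and 97.4 CPM in controls, 189, 171 and 184 CPM in control/fusion and 319.6, 424 and 339 CPM in fusion/fusion. Its log2 fold change was 0.93 ± 0.11 (adjusted p = 0.00078) and 1.92 ± 0.12 (adjusted p = 2.7e-06). Lgals3, which is also abundant in macrophages, was at 33.9 and 39.1 CPM, then 84.8, 48.5 and 59.4 CPM, then 104, 140.3 and 116 CPM. The highest control/fusion library for Lgals3, TA020, was also the one with the highest macrophage and monocyte marker sum of the set, 7379 CPM against 2789 to 4379.7 CPM in the other 7. The log2 fold change of Lgals3 was 0.81 ± 0.20 (adjusted p = 0.020) in control/fusion and 1.71 ± 0.21 (adjusted p = 0.00013) in fusion/fusion. The former call was lost without either control library.

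Crip1, a small LIM-domain protein, was not called in control/fusion. It was at 135 and 169 CPM in controls and 134, 139.6 and 156 CPM in control/fusion, a log2 fold change of -0.09 ± 0.15 (adjusted p = 0.71). In fusion/fusion it was at 191, 279 and 233 CPM, above all other libraries, with a log2 fold change of 0.62 ± 0.15 (adjusted p = 0.0065) against control and 0.71 ± 0.13 (adjusted p = 0.0062) against control/fusion. Without TA018 the change of Crip1 against control was 0.46 (adjusted p = 0.072).

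Vim, the intermediate filament protein of lymphocytes and mesenchymal cells, was at 401 and 384 CPM in controls, 540.2, 576 and 529.6 CPM in control/fusion and 813, 1015 and 844 CPM in fusion/fusion. The log2 fold change was 0.48 ± 0.10 (adjusted p = 0.0073) and 1.18 ± 0.10 (adjusted p = 1.5e-05). Without the control library TA019, 5 members rather than 8 were higher in control/fusion, where 3.28% of all genes were called higher, and the calls of S100a10, Lgals3 and Vim were lost.

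**Figure D2:**
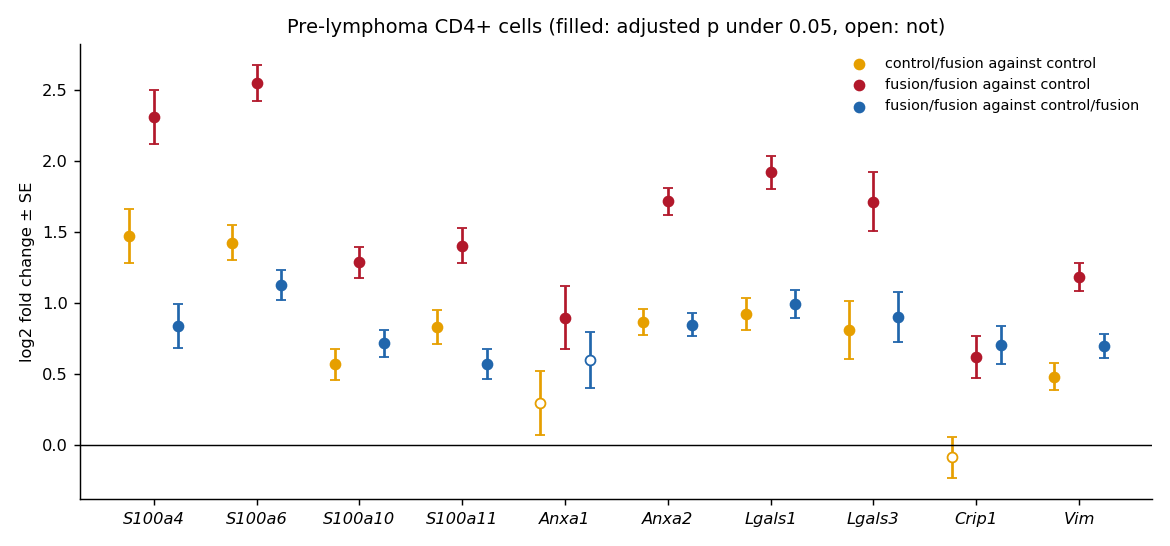
Log2 fold change with its SE (vertical axis) of each member (horizontal axis) in the 3 comparisons of the pre-lymphoma set. Filled points have an adjusted p under 0.05, and the open points are Anxa1 (2 comparisons) and Crip1 (control/fusion against control).

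Every library of fusion/fusion was above every control for 10 members and above every control/fusion library for 10, where 33.1% and 19.4% of all genes tested did the same. Every control/fusion library was above both controls for 8 members, against 26.4% of all genes. The sum of the 10 genes was 1039.6 and 1059 CPM in the controls. It lay between 1521 and 1627 CPM in control/fusion and between 2435 and 3081 CPM in fusion/fusion.

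Other genes of the same families gave mixed counts in fusion/fusion against control. Of 13 further S100 genes 6 were tested and 3 were higher, among them S100a13 (1.154 ± 0.11) and S100a1 (1.81 ± 0.27), while S100a8 and S100a9, which make up calprotectin of neutrophils and monocytes, were at 0.47 ± 0.30 and 0.35 ± 0.25 and did not pass. Of 10 further annexins 7 were tested and 5 were higher, led by Anxa4 (1.81 ± 0.17) and Anxa3 (1.40 ± 0.17). Of 8 further galectins 5 were tested, 3 were higher and 1, Lgals4, was lower (-0.40 ± 0.14). Lgals7 was at 0.581 and 0.470 CPM in controls, 0.517 to 1.27 CPM in control/fusion and 9.53, 22.8 and 18.3 CPM in fusion/fusion, a log2 fold change of 4.98 ± 0.47. Csrp1 and Csrp2, LIM-domain relatives of Crip1, were higher (2 of 3 tested of 5 listed), and of 10 further intermediate filament genes 6 were tested and 4 were higher, including the lamin gene Lmnb1 (1.24 ± 0.11).

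Of 15 partners and receptors 14 were tested. Against control 8 were higher and 1 lower in control/fusion, and 5 were higher and 3 lower in fusion/fusion. The hyaluronan receptor Cd44 (0.82 ± 0.11), the galectin ligands Havcr2 (0.83 ± 0.13) and Lgals3bp (0.92 ± 0.11) were higher in fusion/fusion and Ager, a receptor of S100 proteins, was lower (-0.83 ± 0.16). The 20 effector and memory T cell genes gave 13 higher and 1 lower call in control/fusion against control, and 15 and 1 in fusion/fusion, with Cxcr6 (2.103 ± 0.14), Ccr2 (1.93 ± 0.14) and the actin-capping gene Capg (1.69 ± 0.08) among the largest changes. Of 10 naive T cell genes 9 and 10 were lower, among them Ccr7 (-1.73 ± 0.08) and Lef1 (-1.34 ± 0.08) in fusion/fusion. All 10 cell division genes were higher in both, with medians of 1.22 and 2.32.

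Markers of other cells moved too. Dendritic cell markers were higher for 8 of 8 in control/fusion (215.8 to 295 CPM summed, against 97.3 to 124 CPM in controls) and for 5 of 8 in fusion/fusion (224 to 258 CPM). Erythroid markers were higher for 7 and 9 of 9 tested, plasma cell markers for 0 and 5 of 6, and macrophage and monocyte markers for 2 of 18 in each, with 0 and 1 lower. Stromal and endothelial markers, of interest for Vim, were higher for 3 and 6 of 9 tested, with 0 and 1 lower and medians of 1.18 and 1.69. The 10 listed stromal and endothelial markers summed to 243 and 254 CPM in controls, 247 to 249 CPM in control/fusion and 201 to 212 CPM in fusion/fusion. NK cell markers were higher for 1 and 3 of 5 tested, with 0 and 1 lower. From control/fusion to fusion/fusion, where 9 members were higher, macrophage and monocyte markers were higher for 1 and lower for 4 of 18, and dendritic cell markers higher for 1 and lower for 4 of 8. Neutrophil markers were higher for 6 of 10 tested in that step, where the 10 markers other than S100a8 and S100a9 summed to 31.1 to 37.5 CPM in control/fusion and 65.8 to 86.6 CPM in fusion/fusion, while the defining marker Ly6g was between 0.00 and 0.42 CPM in all 8 libraries. Of uniquely aligned reads, 10.9% and 12.8% matched no gene in the 2 controls. In control/fusion that share lay between 8.74% and 9.82%, and in fusion/fusion between 7.28% and 8.46%. The part of these markers and of this share in the members' levels was not tested.

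Control mice show where the genes are expressed without the fusion. The question was whether the CD4+ cells or the whole spleen hold more of each transcript, and the answer differed between the sets. In CD4-Cre controls 6 members were lower in CD4+ cells than in spleen (S100a11, Lgals3, Anxa1, Anxa2, Crip1 and Vim) and none was higher, against 12.8% of 17426 genes lower and 12.9% higher. In CD4-CreERT2 controls 6 were higher in CD4+ cells (S100a4, S100a6, S100a10, S100a11, Lgals1 and Anxa2) and 1, Anxa1, was lower, against 10.3% of 16951 genes higher and 11.3% lower. The difference between the sets was not tested.

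**Figure D3:**
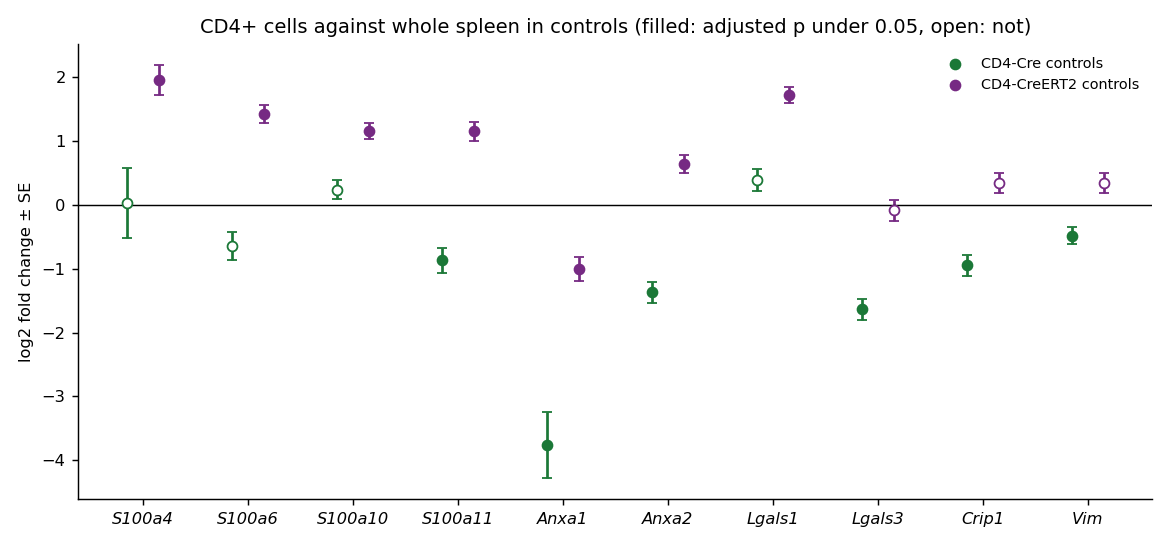
Log2 fold change with its SE (vertical axis) between CD4+ cells and whole spleen in control mice for each member (horizontal axis), for 3 and 3 CD4-Cre libraries and 2 and 3 CD4-CreERT2 libraries. Filled points have an adjusted p under 0.05. Anxa1 and Lgals3 are below 0 in both sets. S100a11 and Anxa2, called in both sets, have opposite signs. So do S100a6, Crip1 and Vim, which were not called in both.

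Anxa1 had the lowest log2 fold change from spleen to CD4+ cells in both sets. In CD4-Cre controls it was at 81.2, 119.8 and 60.8 CPM in CD4+ cells and 461, 1212 and 1904 CPM in spleen, a log2 fold change of -3.77 ± 0.52 (adjusted p = 0.0025). In CD4-CreERT2 controls it was at 51.1 and 44.9 CPM in CD4+ cells and 121, 97.8 and 75.0 CPM in spleen (-1.005 ± 0.20, adjusted p = 0.0069). The groups did not overlap in either set.

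Anxa2 and S100a11 went opposite ways in the control mice of the 2 sets. Anxa2 was at 274, 349.6 and 301 CPM in CD4+ cells and 631, 892 and 868 CPM in spleen of CD4-Cre controls (-1.37 ± 0.17, adjusted p = 0.0016). In CD4-CreERT2 controls it was at 237 and 308 CPM in CD4+ cells and 189, 168 and 176 CPM in spleen (0.64 ± 0.14, adjusted p = 0.013). The sets were scaled separately, so these levels are not tested against each other. S100a11 changed by -0.87 ± 0.19 (adjusted p = 0.016) and 1.153 ± 0.15 (adjusted p = 0.00089). The call of Anxa2 in the CD4-CreERT2 set was lost without the CD4+ library of mouse A3 or the spleen of mouse A2, and was 0.45 (adjusted p = 0.12) and 0.59 (adjusted p = 0.069) in those fits. In the CD4-Cre set the call of S100a11 was lost without the CD4+ library of VM211 or the spleen of VM216 or VM645. Vim (-0.49 ± 0.13, adjusted p = 0.031) lost its call without any of the 3 CD4+ libraries or the spleen of VM216 or VM645, with values between -0.42 and -0.53.

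Lgals1 had 1.73 ± 0.13 on the log2 scale in CD4-CreERT2 controls (adjusted p = 0.00010), with 224 and 226 CPM in CD4+ cells and 74.6, 63.0 and 70.0 CPM in spleen. In CD4-Cre controls it was 0.39 ± 0.17 (adjusted p = 0.13). S100a4, S100a6 and S100a10 had 1.96 ± 0.24, 1.42 ± 0.14 and 1.16 ± 0.13 in CD4-CreERT2 controls, and 0.04 ± 0.55, -0.64 ± 0.22 and 0.24 ± 0.15 in CD4-Cre controls, where none of them passed. With a term for the mouse, since CD4+ cells and spleen carry the same mouse numbers, S100a6 was lower in CD4-Cre controls (-0.68, adjusted p = 0.019), and DESeq2 called it as well (adjusted p = 0.015). It was 1 of 7 members whose 3 CD4+ libraries lay below all 3 spleens, as 21.7% of all genes did. Lgals3 (-1.64 ± 0.17) and Crip1 (-0.95 ± 0.16) were lower in CD4+ cells of CD4-Cre controls, and in CD4-CreERT2 controls they were at -0.09 ± 0.17 and 0.35 ± 0.16, neither of which passed.

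Myeloid markers of the control spleens, scaled separately in the sets, lay in separate ranges. The 10 neutrophil markers other than S100a8 and S100a9 summed to 3359 to 27999 CPM in CD4-Cre control spleens and to 238 to 538 CPM in CD4-CreERT2 control spleens, and the 18 macrophage and monocyte markers to 13584 to 24826 CPM and 1548 to 1948 CPM. With S100a8 and S100a9, all 12 neutrophil markers were lower in CD4+ cells than in spleen in both sets. The macrophage and monocyte markers summed to 5618 to 8315 CPM in CD4+ cells of CD4-Cre controls, below the spleens. As single genes, however, 5 of these 18 were higher in those CD4+ cells and 2 lower, with a median log2 fold change of 0.99. The part of these cells in the members' levels was not tested. The control genotype, the set and the kind of count table cannot be told apart. Scaled by total counts alone, the median of all genes moved by 0.34 in the CD4-Cre comparison, 5198 genes (29.8%) were higher and 1131 (6.49%) lower instead of 2244 and 2235, and 4 members were lower and 2 (S100a10 and Lgals1) higher. With the tumor libraries in the same fit no member passed in either set.

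Tumors were compared with controls of the same set and tissue. In CD4+ cells of the CD4-Cre set no member passed (edgeR), where 0.0168% of 17841 genes were higher and 0.140% lower. There 0 members had an unadjusted p under 0.05, against 15.1% of all genes, and DESeq2 called 0 members, against 7.17% of all genes. In CD4-Cre spleens, CD4-CreERT2 CD4+ cells and CD4-CreERT2 spleens no gene at all passed (0% higher and 0% lower in each). At an unadjusted p under 0.05, 1 member (S100a10) was lower in CD4-Cre spleens, where 5.79% of all genes were, and 1 (Lgals3) was higher in CD4-CreERT2 CD4+ cells, where 3.96% were. In CD4-CreERT2 spleens 5 members had such a p, all of them higher, against 20.1% of all genes in either direction. DESeq2 called 0 members in the former comparisons, where it called 4.41% and 1.63% of all genes, and 5 higher in CD4-CreERT2 spleens, against 8.31% of all genes. In CD4-Cre tumor spleens the members' log2 fold changes ran from -1.27 to -0.05 with a median of -0.56, where the median of all genes was 0.04. Only S100a6, S100a10 and S100a11 were further from 0 than their SE. Mouse VM98 lay above all controls there for Lgals1, Lgals3, Anxa1, Anxa2 and Vim. With total-count scaling Lgals1 and Vim were above 0 there. The medians of the members were 0.10 in CD4-Cre CD4+ cells, -0.16 in CD4-CreERT2 CD4+ cells and 1.5 in CD4-CreERT2 spleens, beside 0.06, 0.01 and -0.02 over all genes.

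**Figure D4:**
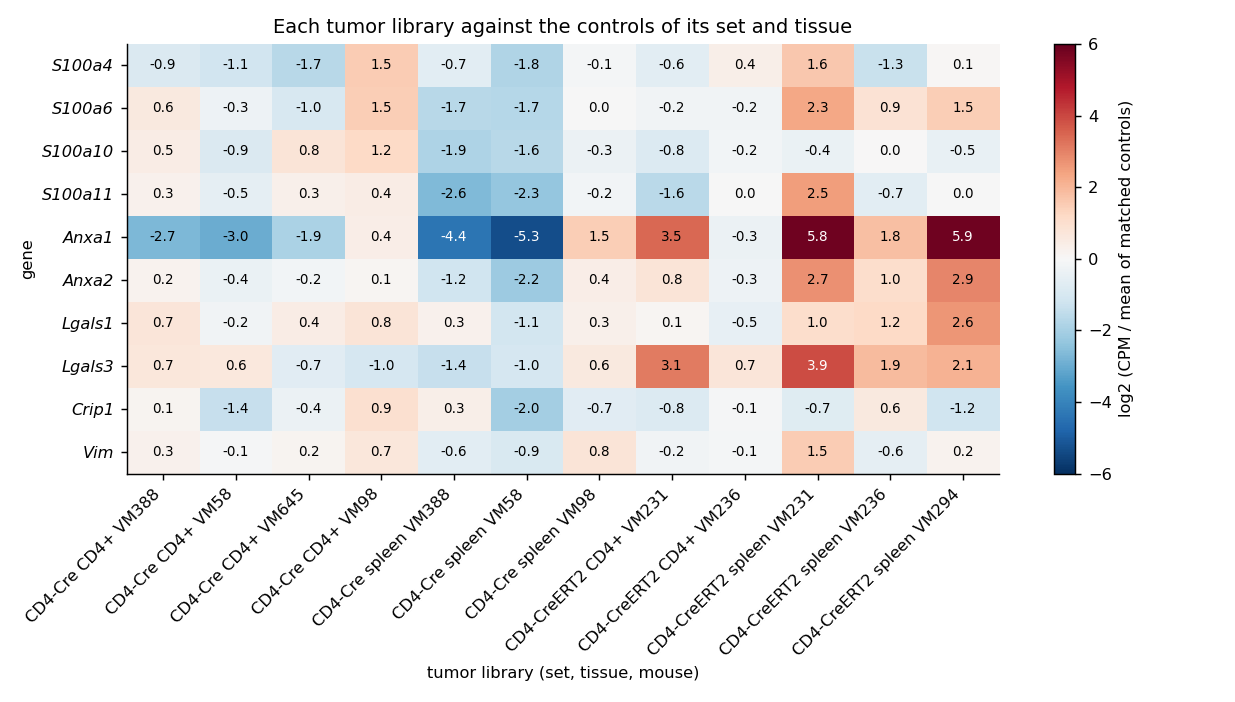
Log2 ratio of each member's CPM (rows) in each of the 12 tumor libraries (columns) to the mean of the controls of the same set and tissue, printed in each cell and shown by colour from -6 (blue) to 6 (red). Anxa1 spans from -5.3 to 5.9, and the CD4-Cre spleens VM388 and VM58 are mostly below their controls.

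The tumor libraries lay on both sides of their controls. In CD4+ cells of CD4-Cre tumor mouse VM98, 7 members were above all 3 controls, where 35.8% of all genes were, and in those of mouse VM58 7 were below all controls, against 35.3% of all genes. S100a6 was at 282, 151, 96.2 and 523 CPM in the CD4+ cells of tumor mice VM388, VM58, VM645 and VM98, and at 127 to 235 CPM in controls, so tumor libraries lay on both sides. S100a10 was at 421, 169.7, 525.8 and 693 CPM in the same order, against 294.5 to 326 CPM. Crip1 was at 386, 134, 269.9 and 670.4 CPM, against 317 to 387 CPM.

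Anxa1 was below all controls in 3 of the 4 CD4-Cre tumor CD4+ libraries, at 13.4, 11.1 and 23.2 CPM against 60.8 to 119.8 CPM in controls, and was 114 CPM in VM98. The log2 fold change was -1.13 ± 0.80 (adjusted p = 0.56) over the 4 libraries. Without VM98 it was -2.50 (adjusted p = 0.027), a fit in which 1 member and 1.89% of all genes were called lower. VM98 had the highest Anxa1 of the 4, so leaving it out lowers the value, and this call is no separate support. Neutrophil markers summed to 49.0, 32.2 and 286 CPM in those 3 libraries, to 1096 CPM in VM98 and to 191 to 595 CPM in the controls. Macrophage and monocyte markers summed to 546 to 4787 CPM in the 4 tumor libraries and to 5618 to 8315 CPM in the controls. Of these 18 markers 2 were lower and 0 higher, with a median log2 fold change of -1.40. The part of these cells in the members' levels was not tested. Lgals1 was at 333, 173, 269 and 337 CPM against 185 to 217 CPM, a change of 0.45 ± 0.24 (adjusted p = 0.44).

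In CD4-Cre spleens, VM58 was below all 3 controls for 10 members and VM388 for 7, where 41.3% and 37.0% of all genes were. S100a11 was at 61.3, 76.3 and 339 CPM in tumor spleens VM388, VM58 and VM98 and at 304 to 429.8 CPM in controls, and S100a10 at 71.2, 82.9 and 204 CPM against 213 to 296 CPM. Their log2 fold changes were -1.27 ± 0.64 and -1.13 ± 0.42 (adjusted p = 0.42 and 0.32). Without VM98, 4 members were lower, where 2.27% of all genes were called lower. They were S100a6 (-1.62), S100a10 (-1.69), S100a11 (-2.41) and Anxa1 (-4.71). The members' median log2 ratio to the control mean was 0.14 in VM98, against -1.30 in VM388 and -1.75 in VM58. Leaving out the highest of 3 libraries favours lower calls, so these calls are no separate support. The neutrophil marker sums of the remaining tumor spleens were 114 and 181 CPM against 3359 CPM or more in controls. Macrophage and monocyte markers summed to 4707 to 22861 CPM in the 3 tumor spleens (median 5042), against 13584 to 24826 CPM in controls. The part of these cells in the members' levels was not tested.

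In CD4-CreERT2 spleens 5 members were above all controls in all 3 tumor libraries, namely S100a6, Lgals1, Lgals3, Anxa1 and Anxa2, where 15.2% of all 16163 genes were. Mouse VM231 had 8 members above all controls, against 38.4% of all genes. Anxa1 was at 5548, 345 and 5668 CPM in tumor mice VM231, VM236 and VM294 against 75.0 to 121 CPM, a change of 5.35 ± 1.10 (adjusted p = 0.12). Anxa2 was at 1181, 366 and 1344 CPM against 168 to 189 CPM (2.49 ± 0.58, adjusted p = 0.13). Lgals3 was at 1142, 282 and 328 CPM against 68.3 to 86.6 CPM (2.96 ± 0.64, adjusted p = 0.12). The TMM factor of VM294 was 0.602, against 0.842 in VM231, 0.967 in VM236 and 1.06 to 1.16 in the controls. A low factor raises every CPM of a library, and its part in these levels was not tested.

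S100a6 was at 424, 158 and 238 CPM against 73.0 to 93.4 CPM (1.71 ± 0.46, adjusted p = 0.15), and Lgals1 at 142, 158 and 427 CPM against 63.0 to 74.6 CPM (1.86 ± 0.53, adjusted p = 0.16). Crip1 and S100a10 did not share this pattern, at 193, 475 and 137 CPM against 269 to 342 CPM and at 101, 134 and 96.8 CPM against 126 to 139.9 CPM. Nor did S100a4, S100a11 and Vim, which lay above all controls in VM231 and below all controls in VM236. The 5 members above all controls in every tumor spleen are the ones that DESeq2 called. Without VM236 edgeR called 4 of them higher, S100a6, Lgals3, Anxa1 and Anxa2, where it called 4.19% of all genes higher. VM236 had the lowest level of these 4 genes among the tumor spleens, so leaving it out favours higher calls. Neutrophil markers summed to 70905, 1849 and 47999 CPM in the 3 tumor spleens. Erythroid markers summed to 317, 1327 and 202 CPM, against 9.04 to 19.6 CPM in controls. Plasma cell markers summed to 3144.5 to 67728 CPM in the tumor spleens, against 2724 to 5777 CPM in controls. The 18 macrophage and monocyte markers summed to 16520, 6270 and 14641 CPM in the 3 tumor spleens, against 1548 to 1948 CPM in controls, and none passed the test (median log2 fold change 2.88, lowest 0.84). The part of these cells in the members' levels was not tested.

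**Figure D5:**
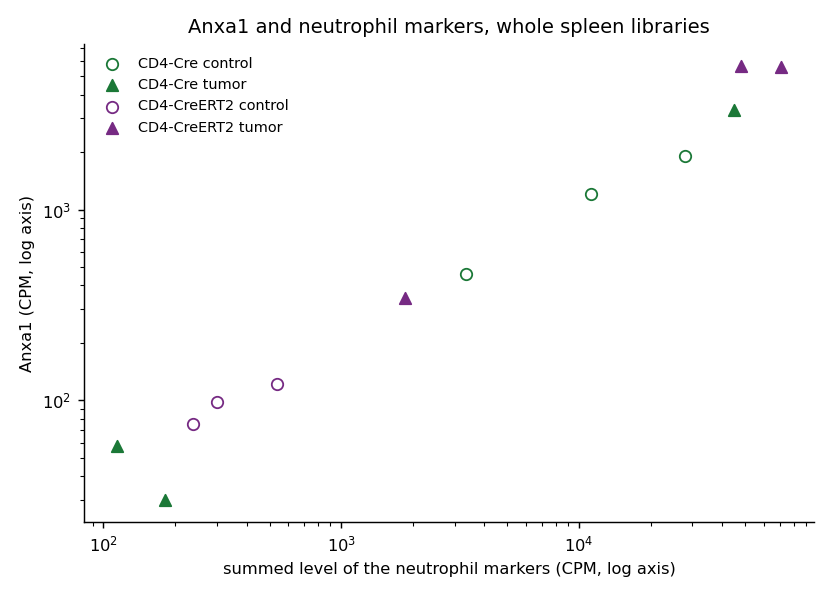
Anxa1 (vertical log axis, CPM) against the summed level of 10 neutrophil markers (horizontal log axis, CPM) in the 12 whole spleen libraries, with open circles for controls and triangles for tumors of the CD4-Cre (green) and CD4-CreERT2 (purple) sets. The spleens with marker sums of 44695 CPM or more have 3317 CPM of Anxa1 or more, and those with sums of 538 CPM or less have 121 CPM or less.

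In CD4+ cells of CD4-CreERT2 tumor mice, 1 member (Lgals3) was above both controls in both libraries, where 13.4% of all genes were. S100a6, S100a10 and Vim were below both controls in both libraries, where 16.8% of all genes were, and the other 6 members overlapped. Lgals3 was at 611 CPM in VM231 and 116 CPM in VM236, against 59.3 and 82.6 CPM in controls (2.36 ± 0.79, adjusted p = 0.92), and Anxa1 at 525 and 38.1 CPM against 51.1 and 44.9 CPM (2.55 ± 1.14, adjusted p = 1.0). S100a10 was at 165 and 259.6 CPM against 276 and 308 CPM (-0.45 ± 0.33, adjusted p = 1.0), and S100a6 at 193 and 197 CPM against 222 and 228 CPM. S100a11 was at 67.1 and 204 CPM against 191 and 224 CPM. The neutrophil markers summed to 4433 CPM in VM231, 86.4 CPM in VM236 and 35.6 to 58.6 CPM in controls. Macrophage and monocyte markers summed to 3845.5 CPM in VM231 and 6034 CPM in VM236, against 614 and 1236 CPM in controls, with 18 of 18 log2 fold changes above 0 (median 2.83) and none past the test. The part of these cells in the members' levels was not tested. Without VM236, 3 members were higher (Lgals3, Anxa1 and Anxa2) and 3 lower (S100a10, S100a11 and Crip1), against 10.4% and 7.40% of all genes, from a single tumor library that is assumed to vary like the controls.

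Between CD4+ cells and spleen of tumor mice no gene passed in either set (0% higher and 0% lower of 17534 and 17467 genes). At an unadjusted p under 0.05, S100a10 was higher and Anxa1 lower in the CD4-Cre mice, where 7.69% of all genes were higher and 6.51% lower. No member had such a p in the CD4-CreERT2 mice, where 3.85% of all genes did. S100a10 had a log2 fold change of 1.93 ± 0.57 (adjusted p = 0.20), and DESeq2 called it (adjusted p = 0.016) along with 4.04% of all genes as higher. An interaction term asked whether tumors changed CD4+ cells and spleen by different amounts, and again no gene passed (0% in either direction of 19503 and 18529 genes). At an unadjusted p under 0.05, 1 member had a positive interaction in the CD4-Cre set (S100a10, 1.68 ± 0.64), against 3.53% of all genes. In the CD4-CreERT2 set 3 had a negative one, S100a6 (-1.88 ± 0.60), Lgals1 (-1.97 ± 0.71) and Anxa2 (-2.09 ± 0.80), against 1.33% of all genes. DESeq2 called no member in either set, and 0.264% and 0% of all genes.

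Per kilobase of summed exon length the members kept S100a11 first and S100a4 and Anxa1 last in all 3 groups of the pre-lymphoma set. This length counts every annotated exon, and which exons the cells use was not tested. The place of S100a4 is uncertain, since its length includes the exon bases shared with Gm42674, where reads may have been set aside. In controls S100a11 came first (192 ± 9.2 CPM per kilobase, SD, n = 2), followed by S100a10 (145 ± 0.62), Lgals1 (119 ± 3.6) and Vim (82.8 ± 2.6), and the last were S100a4 (4.35 ± 0.18) and Anxa1 (3.14 ± 0.64). In fusion/fusion S100a11 (508 ± 29, n = 3) and Lgals1 (451 ± 69) overlapped within their spread, S100a10 (354 ± 34) was next, and Anxa1 (5.87 ± 1.7) was again last. In tumor spleens of both sets, another tissue, Anxa1 had the highest mean. It was 1478 ± 1165 CPM per kilobase (n = 3) in the CD4-CreERT2 set. Mouse VM236 of that set had 132, below its Crip1 (208), Lgals1 (197) and Lgals3 (152). In the CD4-Cre set the mean was 435 ± 725 (n = 3), where the SD is larger than the mean. VM98 had 1272 there, while VM388 and VM58 had 22.1 and 11.5. In CD4-Cre control spleens Anxa1 was already at 457 ± 277, next after S100a11 (746 ± 133).

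Within the 31 libraries, after each set and tissue was centred on its own mean, the members followed each other to different degrees. The Pearson correlation of a member with the mean of the other 9 was 0.92 for S100a6, 0.86 for Anxa2, 0.84 for Vim, 0.75 for S100a11, 0.70 for S100a4, 0.69 for Anxa1, 0.66 for Lgals1, 0.59 for S100a10, 0.53 for Lgals3 and 0.24 for Crip1. Within single sets and tissues the values differed. They lay between 0.76 and 0.996 in the 8 pre-lymphoma libraries, with Crip1 the lowest, and between 0.47 and 0.99 in the 6 CD4-Cre spleens. In the 7 CD4-Cre CD4+ libraries Lgals3 was at -0.61 and the other members between 0.52 and 0.89. In the 6 CD4-CreERT2 spleens S100a10 (-0.88) and Crip1 (-0.73) were negative, and in the 4 CD4-CreERT2 CD4+ libraries 8 of the 10 members were negative. Among 8832 other genes the most similar to the mean of the 10 were Bin3 (0.89), Gabarap (0.88), Nudt4 (0.87), Ltb4r1 (0.85), Glipr2 (0.85), Hcfc1r1 (0.84), Sh3bgrl3 (0.81) and Ly6c2 (0.80). Status and genotype were not removed by the centring, so the rise across the pre-lymphoma groups given above is part of these correlations. They are thus no separate support that the members follow each other. They describe libraries that share sets, depth and cell content, and they carry no test.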

How the data were processed

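The authors deposited 1 table of unnormalized read counts by gene for each library. Per the labels, the RNeasy Micro kit gave polyA RNA, which was amplified with SMART-Seq v4 and made into Nextera XT libraries for an Illumina HiSeq. Per the submitters' processing notes, HISAT2 2.1.0 and HTSeq 0.5.4 were used, with build mm10 or mm10 and GRCm38. The kind of count table differs by set. Those for CD4-CreERT2 libraries hold 49315 genes with coordinates and give no shares of unmatched or ambiguous reads. The remaining libraries have tables of 55276 genes, from which these shares were taken. Whether HTSeq made both kinds was not tested, so levels of different sets may also differ by counting. The annotation release and the strand setting are not given in the sources used here. Nothing in the labels says that libraries came from separate mice beyond their numbers, so p-values speak of the spread between libraries, which may be technical.

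Genes were filtered with filterByExpr, scaled by TMM and tested with the two-sided quasi-likelihood F test of edgeR 4.0.16 in R 4.3.3, fitted on the groups compared (the 3 pre-lymphoma groups shared a fit). P-values were adjusted by the Benjamini-Hochberg method across every gene tested in a comparison, with a threshold of 0.05. The SE is the size of the log2 fold change over the square root of F. The fit was run on simulated counts with the same small spread for every gene, which does not test it at the wide spread of the tumor libraries. Alternatives were RLE or total-count scaling, no filter, DESeq2 1.42.0, other groups in the fit, a term for mouse, a term for sex and leaving out libraries. The 10 genes and the other lists were chosen with earlier results of these data known, and all 10 passed the filter in every comparison. Of every other list the text gives the counts and, by rule, up to 4 genes that passed with the largest change at a mean log2 CPM of at least 1. Lgals7, S100a8, S100a9 and some marker values were named after their values were seen. Genes most like the members were ranked on log2 CPM (prior count 2) among genes of mean log2 CPM of at least 3. The reads carry no molecular identifiers, so copies of 1 molecule can be counted more than once. Sums over neutrophil markers leave out S100a8 and S100a9, which are listed with the S100 genes.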

Additional observations from a re-analysis of the deposited data

Results flagged for a closer look

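Within the 4 CD4+ tumor libraries of the CD4-Cre set, S100a11 was 144 CPM in mouse VM58, far below the other 3, which lay between 254 and 284 CPM. The gap to the nearest library was 0.83 of the whole range on the log scale, just over the limit for groups of 4. Chance flags about 1 in 20 groups, and the 10 genes were checked in this group, the only one with 4 libraries.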

How the results depend on the processing

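Of 1690 values of single members under an alternative, 77 turned sign, none of which had passed in the reported fit, and 67 crossed the threshold. The cause was not tested. With total-count scaling 2 members were higher in CD4+ cells than in spleen of CD4-Cre controls, instead of 0. In that fit 29.8% of all genes were higher, instead of 12.9%. With all libraries of a set in 1 fit, 0 members were lower in CD4-Cre controls, 0 were higher and 0 lower in CD4-CreERT2 controls, and 1 was higher in CD4-Cre tumor mice. Anxa1 lost its call in both control sets there with little change in its value, -3.77 for CD4-Cre and -1.03 for CD4-CreERT2. In CD4-Cre tumor mice DESeq2 gave 1 higher, against 4.04% of all genes. The fit without a filter gave 1 higher and 1 lower in these mice. In CD4-CreERT2 spleens DESeq2 gave 5 higher in tumors, against 8.31% of all genes, and the fit without a filter 2. Shares of all genes are not given for the fits with all libraries, without a filter or with a mouse term. Their counts therefore do not tell the members from all genes.

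Leaving out 1 library at a time gave 5 to 8 members higher in control/fusion against control (8 with all libraries), 0 to 4 higher in CD4-CreERT2 tumor spleens, 0 to 3 higher and 0 to 3 lower in CD4-CreERT2 tumor CD4+ cells, 0 to 1 lower in CD4-Cre tumor CD4+ cells and 0 to 4 lower in CD4-Cre tumor spleens. The shares of all genes called in the fits furthest from the reported counts stand with the results above. Mice carry the same number in CD4+ cells and spleen. With this replicate block by mouse 7 members were lower in CD4-Cre controls instead of 6 (S100a6 was added). In CD4-CreERT2 controls 6 were higher and 1 lower, and no other count changed. S100a4 had 14 to 106 counts in a library of the CD4-Cre set; whether depth limits its calls there was not tested.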
